A study of Homo sapiens with 8 samples.

Results

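The 3 arrays described here held RNA of HepG2 cells that were first loaded with fatty acid and then given fenofibrate, each set against RNA of untreated HepG2 cells. They were chosen by their titles and are 3 of the 8 arrays of the study. HepG2 is an established human hepatoblastoma line that serves as a model of hepatocytes. Per the labels' protocols, the line was loaded with 400 µM oleate for 24 h in medium with serum, the oleate being carried on fatty acid-free albumin at a ratio of 6.6. A PBS wash followed, and then 24 h in medium without serum and with 100 µM fenofibrate. A further label of the same samples names oleate together with palmitate, so the exact fatty acid load is uncertain. The groups used for comparison were cells loaded in the same way and then kept without a compound (3 arrays), and loaded cells given 1 mM linalool, a monoterpene alcohol of plant oils (2 arrays). The loading is thus common to all treated groups, and the untreated control had neither the load nor a compound. The labels do not say whether the control spent the same time without serum. Replicates are labelled as biological, but separate cultures are not mentioned, so the spread behind each p-value may be technical.

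Each array measured 2 colours. Untreated RNA was in the Cy5 channel and treated RNA in the Cy3 channel on all 8 arrays, with no dye swap, so a gene-specific dye bias and the treatment cannot be told apart in a ratio against the control. Values are log2 ratios as deposited, on which 1 unit is a 2-fold difference. Which channel is the numerator is not given in the sources used here. Throughout, "positive" and "negative" refer to the sign in the deposited table and do not say in which of the 2 samples a gene was the more abundant. The ratio was tested against 0, so the spread of the control itself is not part of the test.

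Fenofibrate is a lipid-lowering drug. Its acid form is an agonist of PPARα, a nuclear receptor abundant in hepatocytes that senses fatty acids. With its partner RXR, PPARα binds pairs of the half-site AGGTCA in promoters and enhancers. In liver it is known for driving fatty acid binding, activation and oxidation in mitochondria and peroxisomes, ketone body synthesis, and the genes of lipoprotein handling. CREB3L3 and FGF21 are among its known targets and in turn affect plasma triglyceride. The human hepatoma line is known to respond more weakly to PPARα agonists than rodent liver does.

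Replicate 3 stood apart from the rest. Over 18819 genes, the ratios of fenofibrate replicates 1 and 2 correlated with Pearson's r = 0.356, while replicate 3 correlated with them at 0.0982 and 0.0872. With the arrays of loaded cells without a compound, replicate 1 correlated at 0.524 to 0.578, replicate 2 at 0.364 to 0.415 and replicate 3 at 0.0935 to 0.101. Replicates 1 and 2 were thus no closer to each other than to the loaded arrays. These r values run across genes, which share an array and are not independent replicates. Replicates 1 and 2 had the same sign for 67.8% of genes, replicates 1 and 3 for 53.1%, and replicates 2 and 3 for 52.7%. Where replicates 1 and 2 shared a sign, replicate 3 had it too for 54.2% of genes, so that 36.8% of genes had 1 sign on all 3 arrays, 21.5% positive and 15.3% negative. For 4666 genes with exactly 2 probes, the ratios of the 2 probes correlated at 0.319 on replicate 1, 0.129 on replicate 2 and 0.0223 on replicate 3. The same correlation was 0.327 to 0.457 on the arrays of loaded cells without a compound, and 0.172 and 0.177 on the linalool arrays. Whether the RNA, the labelling or the array set replicate 3 apart was not tested. Results are given below with and without it. HepG2 identity could not be checked from ratios to the same line. As ratios, 8 of the 9 measured hepatocyte markers had a positive mean, and for 15 measured genes of stroma, endothelium and blood the median was −0.16, with 4 of 15 positive.

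**Figure D1:**
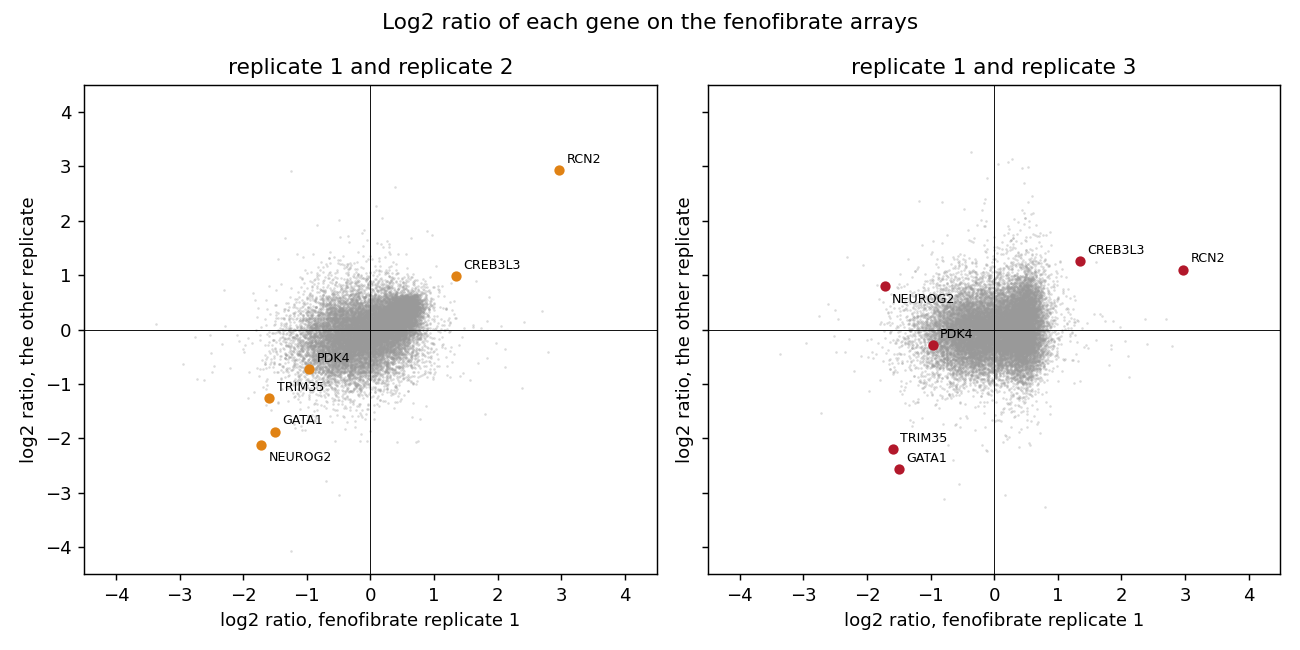
Log2 ratio of each of the 18819 genes on fenofibrate replicate 1 (horizontal axis of both panels) against replicate 2 (left) and replicate 3 (right), on linear axes in log2 units. Grey points are genes and coloured points are 6 named genes. The cloud leans along the diagonal on the left (r = 0.356) and has almost no slope on the right (r = 0.0982), where NEUROG2 is on the opposite side of 0.

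No gene passed a Benjamini-Hochberg adjusted p of 0.05 in limma's test of the 3 fenofibrate arrays against the untreated control (0 of 18819 genes, 0%). The smallest adjusted p was 0.0968. At an unadjusted p under 0.05, 3410 genes passed, or 18.1% of those tested, where 941 would be counted if nothing differed: 2083 were positive (11.1%) and 1327 negative (7.05%). Positive genes were 61.1% of these, and 46.1% once each array was centred on its median gene. Without replicate 3, 1 gene passed the adjusted test (0.00531%) and 4410 the unadjusted one (23.4%), 2787 positive (14.8%) and 1623 negative (8.62%). All 3 arrays had a ratio above 0.5 for 157 genes (0.834%) and below −0.5 for 161 genes (0.856%). In what follows a gene "at p under 0.05" is one past this unadjusted level, which is a description and not a call. Counts of such genes in a list stand beside the shares of 11.1% positive and 7.05% negative over all genes. Sign-flipping 3 arrays cannot give a p under 0.25, so a gene could be called only through the spread pooled over all 8 arrays and over genes. Each SE given below is limma's and rests on that same pooled spread, not on the 3 fenofibrate arrays alone.

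CREB3L3, which encodes a liver transcription factor of the endoplasmic reticulum membrane that governs triglyceride clearance genes, had the firmest positive ratio for which every probe had the same sign. Its log2 ratios were 1.35, 0.98 and 1.27 on replicates 1, 2 and 3. The 3 values lie close together, and none of the arrays of the other groups reached the highest of them. The mean was 1.20 (SE 0.16, n = 3), with a limma adjusted p of 0.0968 over all genes. Both probes were positive, one with 1.31, 0.89 and 0.69, the other with 1.39, 1.08 and 1.84. Where only the 5376 genes measured by at least 2 probes were tested, CREB3L3 had an adjusted p of 0.000291. In that test it also passed without fenofibrate replicate 1 (0.0141), without replicate 2 (0.00148) and without replicate 3 (0.014). Loaded cells without a compound had ratios of 0.94, 1.08 and 0.66, and cells given linalool 0.03 and −0.06. The fenofibrate and loaded arrays thus overlapped, while both linalool arrays were near 0.

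RCN2, which encodes a calcium-binding protein of the secretory pathway, had the largest mean ratio of all genes tested and rested on 1 of its 2 probes. The gene's ratios were 2.97, 2.94 and 1.10, mean 2.34 (limma SE 0.30, n = 3, adjusted p = 0.0968). The SD of these 3 values was 1.07, so the pooled SE understates their spread. One probe read 5.59, 5.52 and 3.12, and the other 0.35, 0.36 and −0.92. Every array of the other groups was also high for this gene, at 3.20, 3.01 and 2.96 in loaded cells and 2.63 and 2.73 with linalool. Without replicate 3 it was the gene that passed over all genes, with a mean of 2.95 and an adjusted p of 0.000423.

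In the test restricted to genes with at least 2 probes, 9 of 5376 genes passed (0.167%), 6 positive (0.112%) and 3 negative (0.0558%). Beside RCN2 and CREB3L3, the positive ones were S100A1, RPS13, ASGR1 and ETV5. S100A1, a calcium sensor, had ratios of 0.73, 0.66 and 1.29 (adjusted p = 0.0211). RPS13, a protein of the small ribosomal subunit, had 0.73, 0.66 and 1.34 (0.0273). ASGR1, the major subunit of the hepatocyte receptor that clears desialylated glycoproteins, had 0.84, 0.38 and 1.44 (0.0467). ETV5, an ETS family transcription factor, had 0.84, 0.55 and 0.76 (0.0467). All 4 were positive on every array of the other groups as well. The negative genes were RPH3A, an effector of synaptic vesicle traffic, with −1.05, −0.86 and −0.92 (0.0211), CRYBB2, a lens crystallin, with −1.52, −0.61 and −0.61 (0.0281), and PPP1R1A, an inhibitor of protein phosphatase 1, with −0.98, −0.63 and −0.78 (0.0467). These 3 genes were negative on every array of the other groups too, and RPH3A was lower in loaded cells, at −1.61, −1.25 and −1.24. The 2 probes of RPH3A disagreed, with means of −2.00 and 0.11. Tested probe by probe, 3 of 25050 passed (0.012%), 1 positive (0.00399%) and 2 negative (0.00798%). These were the strong probe of RCN2, the negative probe of RPH3A, and 1 of the 3 probes of the nuclear receptor gene RORA, at −1.62, −1.73 and −2.82. Only RCN2 and CREB3L3 passed the test of genes with at least 2 probes with each fenofibrate array left out in turn, and without replicate 3 they were the 2 genes that passed.

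The half-site AGGTCA occurs in the CREB3L3 promoter, as it does in those of FABP1 and APOA5, whose ratios were also positive on all 3 arrays and are given further on. These 3 windows are printed because, of the lipid genes fixed by name, they are the ones in which the half-site was found, so they were picked for holding it. They run from 250 bases before to 50 bases from the gene start on, read 5′ to 3′ on the gene's strand, from RefSeq on GRCh38.p14. Capitals mark AGGTCA or, where the site lies on the opposite strand, TGACCT. The windows are chr19:4153381-4153680 (plus strand), chr2:88128013-88128312 (minus strand) and chr11:116792371-116792670 (minus strand).
CREB3L3: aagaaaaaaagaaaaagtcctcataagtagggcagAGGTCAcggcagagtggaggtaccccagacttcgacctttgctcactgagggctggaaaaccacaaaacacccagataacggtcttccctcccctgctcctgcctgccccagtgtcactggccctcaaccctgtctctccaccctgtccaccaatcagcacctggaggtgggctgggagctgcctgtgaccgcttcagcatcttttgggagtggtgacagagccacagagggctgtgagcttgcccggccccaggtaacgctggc
FABP1: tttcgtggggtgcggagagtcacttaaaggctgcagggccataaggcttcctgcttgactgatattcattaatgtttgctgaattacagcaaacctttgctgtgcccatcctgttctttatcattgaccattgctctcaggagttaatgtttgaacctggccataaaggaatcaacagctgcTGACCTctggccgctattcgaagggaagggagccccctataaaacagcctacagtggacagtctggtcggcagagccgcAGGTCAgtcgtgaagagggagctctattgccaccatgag
APOA5: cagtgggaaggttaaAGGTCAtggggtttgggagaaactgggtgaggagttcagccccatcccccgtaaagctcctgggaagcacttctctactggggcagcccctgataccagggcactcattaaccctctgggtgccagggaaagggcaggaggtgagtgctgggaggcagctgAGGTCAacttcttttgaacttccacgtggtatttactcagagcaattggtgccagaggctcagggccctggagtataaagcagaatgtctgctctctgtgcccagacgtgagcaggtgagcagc

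The first base of the site lies at −215 relative to the gene start in CREB3L3, at −68 and 12 in FABP1, and at −235 and −74 in APOA5. A half-site on either strand was present in 1665 of the 14792 tested genes with a promoter in the table, or 11.3%. Its share was 5% among mitochondrial fatty acid oxidation genes (1 of 20), 0 of 13 among peroxisomal ones, and 14.3% among apolipoprotein genes (2 of 14). Of the leading genes shown in the plot by array, 2 of 12 positive ones (CREB3L3 and PLA2G5) and 2 of 8 negative ones (CDKL4 and RTP2) held it. The paired element was read as exactly AGGTCA, any base and AGGTCA again on either strand, and so holds the half-site. It occurred in 2 tested promoters and in none of the named genes. Pairs that differ from it by any letter were not searched for, so their presence is unknown. A match is a description of these letters in this window.

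The 14 positive genes with the smallest p of one sign on all 3 arrays included 3 of liver lipid and drug metabolism. CYP1A2, a hepatic cytochrome P450 that oxidises caffeine and aromatic amines, had ratios of 1.06, 0.81 and 1.11 (mean 1.00, SE 0.17). FASN, the synthase that builds palmitate, had 1.13, 0.80 and 0.96 (mean 0.96, SE 0.18). APOA2, an apolipoprotein of HDL, had 0.92, 0.73 and 0.90 (mean 0.85, SE 0.16). These 3 genes had values within a narrow range on the 3 arrays, replicate 3 included, each with an adjusted p of 0.132. The loaded and linalool means were 1.23 and 1.15 for CYP1A2, 0.52 and 0.45 for FASN, and 0.82 and 1.04 for APOA2. Beside RCN2 and CREB3L3, the others were BRD3OS, CUL1 (a ubiquitin ligase scaffold), PLA2G5 (a secreted phospholipase), the pseudogene EIF1P3, S100A1, YBX1 (a cold shock domain RNA-binding protein), PATE4, LAIR1 (an inhibitory receptor of leukocytes) and LRP10. The means of these 9 ran from 0.82 for YBX1 to 1.26 for BRD3OS.

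The 14 negative genes included an erythroid factor and noncoding RNAs. GATA1, the erythroid transcription factor, had −1.50, −1.88 and −2.57 (mean −1.98, SE 0.28, adjusted p = 0.0995). EWSAT1, a long noncoding RNA, had −0.86, −1.63 and −1.98 (mean −1.49, SE 0.22, adjusted p = 0.0995). TRIM35, a ubiquitin ligase of the tripartite motif family, had −1.59, −1.25 and −2.20. C8orf48 had −2.72, −0.90 and −1.54, and its 3 arrays spread most. RSPO2, a secreted enhancer of Wnt signalling, had −1.26, −1.11 and −0.85. The rest were LINC01089, AMN1, ACTL9, the transcribed pseudogene ADGRE4P, S100A2, CDKL4, SEZ6, ADAMTS15 and RTP2, with means from −0.90 (S100A2) to −1.22 (ACTL9). Each of the 14 was measured by 1 probe. The loaded and linalool means were −1.02 and 0.36 for GATA1, −0.86 and −0.42 for EWSAT1, and −1.56 and −1.02 for TRIM35. For C8orf48 they were −1.23 and −1.38, and for RSPO2 −0.84 and 0.51.

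**Figure D2:**
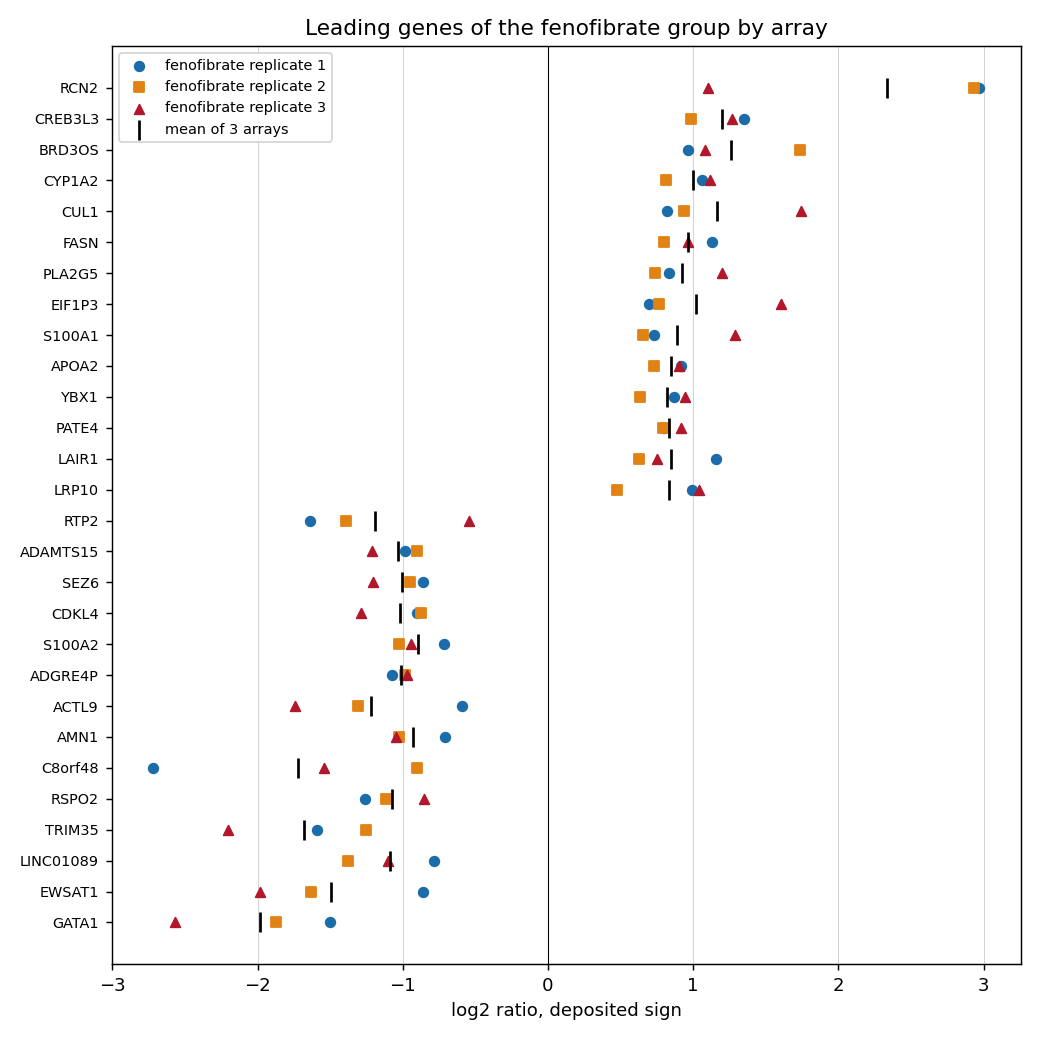
Log2 ratios (deposited sign) of the 14 positive and 14 negative genes with the smallest p on each of the 3 fenofibrate arrays. Symbols are single arrays and the bar is their mean. CREB3L3, FASN and APOA2 have their 3 arrays close together, RCN2 falls from near 3 on replicates 1 and 2 to 1.10 on replicate 3, and GATA1 lies furthest to the left.

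Genes of mitochondrial fatty acid oxidation were mostly positive. Of 23 measured, 19 had a positive mean, where the share over all genes was 52.8%, and 14 were positive on all 3 arrays, where it was 21.5%. At p under 0.05, 10 were positive and 0 negative, and none passed the adjusted test. The list's median was 0.37, against 0.02 over all genes, and was 0.54, 0.44 and 0.18 on replicates 1, 2 and 3. Without replicate 3 it was 0.51. Loaded cells without a compound had a median of 0.67 for the same genes.

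ACADVL, the first enzyme of the mitochondrial oxidation of long chains, had ratios of 0.94, 0.56 and 0.78 (mean 0.76, SE 0.16). ECI1, which moves a double bond so that unsaturated chains such as oleate can be oxidised, had 0.74, 0.47 and 1.53. The electron carriers ETFA and ETFB had 0.51, 0.51 and 0.52, and 0.58, 0.62 and 0.71. DECR1, a reductase also needed for unsaturated chains, had 0.54, 0.60 and 0.53. These 5 were positive by about the same amount on every array, apart from ECI1 on replicate 3. CPT1A, which makes acylcarnitine for entry into mitochondria and is the rate-setting step, had 0.78, 0.25 and 0.17 (mean 0.40, SE 0.17, adjusted p = 0.239). The loaded arrays had a CPT1A mean of 0.37 and the linalool arrays 0.32, and the 3 groups overlapped. CPT2, which reverses that step inside, was positive on replicates 1 and 2 (0.38 and 0.44) and −1.29 on replicate 3. The trifunctional protein subunit HADHA had 0.58, 0.50 and −0.38, and the medium-chain dehydrogenase ACADM 0.77, 0.54 and −0.40. For these 3 genes replicate 3 alone had the other sign.

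Peroxisomal oxidation held genes of both signs. Of 18 measured genes, 13 had a positive mean, 4 were positive and 0 negative at p under 0.05, and 6 were positive on all 3 arrays. The shares over all genes were 52.8%, 11.1%, 7.05% and 21.5%. The median was 0.16, with 0.36, 0.22 and −0.07 on replicates 1, 2 and 3. Catalase (CAT) had 0.71, 0.62 and 0.58, and HSD17B4, the bifunctional enzyme that follows the first oxidation, 0.63, 0.54 and 0.38. EHHADH, another bifunctional enzyme and a known PPARα target in rodent liver, had 0.28, 0.35 and 0.13. The transporter ABCD3 had 0.59, 0.68 and 0.32. ACAA1 and PEX11A were positive on replicates 1 and 2 and negative on replicate 3.

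Omega oxidation, which starts at the far end of the chain, had a median of −0.05 over 9 genes, and 0.135 without replicate 3. CYP4A11, its human fatty acid hydroxylase and a PPARα target, had −1.01, −0.23 and 0.07, so that the 3 arrays did not share a sign. ALDH3A2, the fatty aldehyde dehydrogenase, was the member at p under 0.05, with 0.62, 0.38 and 0.31.

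Among 12 genes of ketogenesis and the fasting response, 8 were positive, 3 of them at p under 0.05, and 1 was negative at that level. Over all genes these shares were 52.8%, 11.1% and 7.05%. PCK1, which opens gluconeogenesis, had 0.94, 0.69 and 0.55 (mean 0.72). PDK4, the kinase that shuts pyruvate out of the citric acid cycle and a known PPARα target, was negative on all 3 arrays, at −0.96, −0.73 and −0.29 (mean −0.66, SE 0.23, adjusted p = 0.182). ANGPTL4, a secreted inhibitor of lipoprotein lipase and another target, was positive on all 3, at 0.13, 0.40 and 0.78 (mean 0.43, SE 0.17, adjusted p = 0.217). FGF21, a hormone of the fasted liver, had 0.01, 0.19 and 0.58 (mean 0.26, adjusted p = 0.465). For ANGPTL4 and FGF21 replicate 3 was the highest array, and for PDK4 it was the one nearest to 0. Without replicate 3 the list's median moved from 0.23 to 0.17.

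Fatty acid uptake, binding and activation showed no common sign, with 9 of 18 genes positive and a median of 0.02. Without replicate 3 the median was 0.21, and 5 genes were positive and 2 negative at p under 0.05, against 2 and 3 with it. Over all genes these shares were 14.8% and 8.62% without replicate 3, and 11.1% and 7.05% with it. FABP1, the fatty acid-binding protein of hepatocytes, had 0.99, 0.78 and 0.89 (mean 0.89, SE 0.19, adjusted p = 0.132), and its arrays stayed within a narrow range. ACSL1, which activates long chains to acyl-CoA, had 0.68, 0.38 and 0.38. The intestinal binding proteins FABP6 (−1.56, −0.60 and −0.25) and FABP2 (−0.74, −0.50 and −0.16) were negative on all 3, most strongly on replicate 1. CD36, the fatty acid scavenger receptor, had −0.12, −0.19 and −0.09.

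Of 19 lipid droplet genes, 9 were positive, and the 3 at p under 0.05 were coat or fusion proteins. Among all genes, 52.8% had a positive mean and 11.1% were positive at that level. PLIN2, the chief droplet coat of hepatocytes, had 0.93, 0.97 and 0.40 (mean 0.77, SE 0.17), PLIN3 had 0.74, 0.62 and 0.21, and CIDEC, which enlarges droplets, 0.61, 0.58 and 0.82. Replicate 3 was the lowest array for both perilipins. PNPLA2, the lipase that begins droplet breakdown, had 0.64, −0.44 and −0.22, and its helper ABHD5 −0.01, 0.01 and −0.35.

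**Figure D3:**
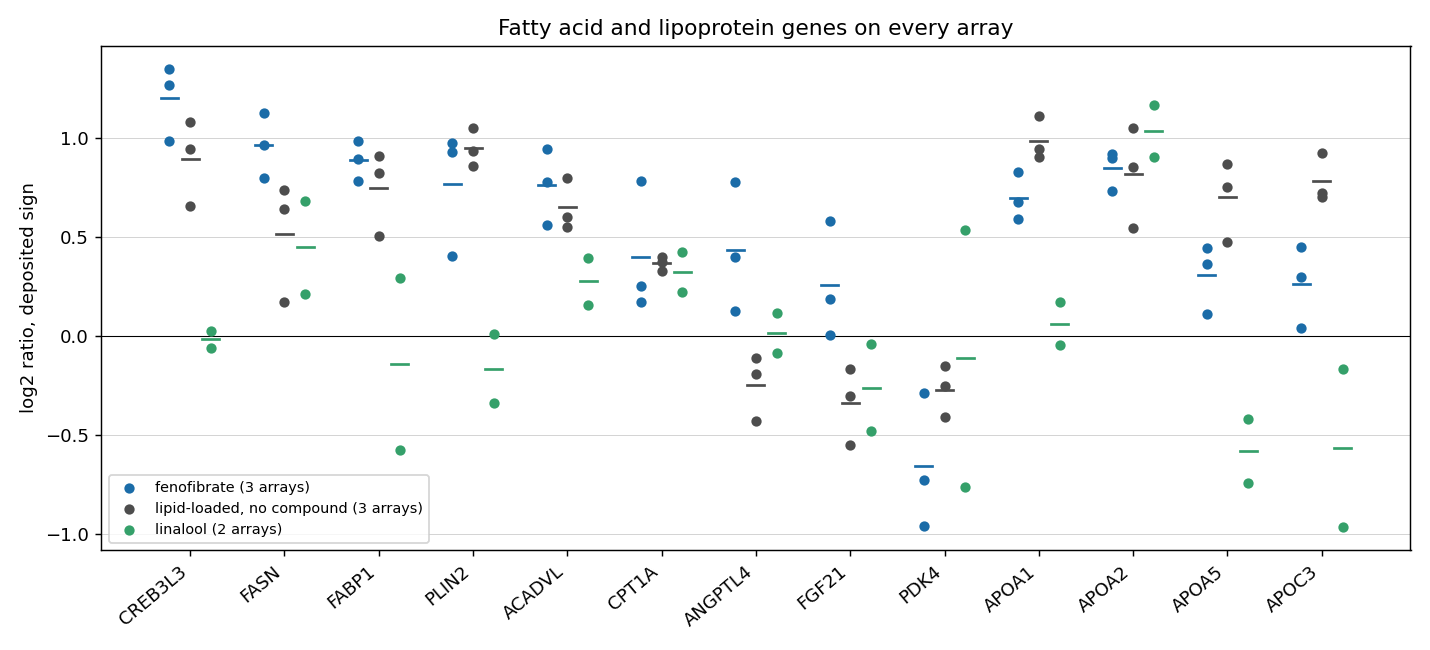
Log2 ratios (deposited sign) of 13 fatty acid and lipoprotein genes on every array, with the fenofibrate arrays in blue, the lipid-loaded arrays without a compound in grey and the linalool arrays in green. Points are arrays and bars are group means. CREB3L3, FABP1, PLIN2, APOA5 and APOC3 lie above 0 on every fenofibrate and loaded array and at lower values on the linalool arrays, and ANGPTL4 is above 0 on the fenofibrate arrays and below 0 on the loaded ones.

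Apolipoproteins and lipoprotein handling were mostly positive and held that sign on replicate 3. Of 20 measured genes, 16 had a positive mean, 12 were positive on all 3 arrays, and 9 were positive and 0 negative at p under 0.05. The median was 0.31, with 0.48, 0.29 and 0.35 on replicates 1, 2 and 3, and 0.39 without replicate 3. APOA1, the main protein of HDL which fibrates are known to raise in human plasma, had 0.68, 0.59 and 0.83 (mean 0.70, SE 0.15). The loaded arrays lay above all of these, at 1.11, 0.945 and 0.91 (difference −0.29, SE 0.21, adjusted p = 0.556), and the list's median was 0.68 in loaded cells. APOE, a ligand for remnant uptake, had 0.76, 0.43 and 0.92, and APOB, the backbone of VLDL and LDL, 0.54, 0.32 and 1.01. APOC2, the activator of lipoprotein lipase, had 0.67, 0.47 and 0.68. All 4 were positive by at least 0.32 on each array.

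The triglyceride-setting pair of the chromosome 11 apolipoprotein cluster had smaller ratios. APOA5, which aids lipoprotein lipase, had 0.44, 0.11 and 0.36 (mean 0.31, adjusted p = 0.34), and its 2 probes parted on replicate 3, at −0.58 and 1.30. APOC3, which inhibits that lipase, had 0.45, 0.30 and 0.04 (mean 0.26, adjusted p = 0.473). Loaded cells had 0.87, 0.75 and 0.48 for APOA5 and 0.92, 0.70 and 0.72 for APOC3, all above the fenofibrate arrays of the same gene. MTTP, which loads lipid onto APOB, had 0.44, 0.36 and 0.13. LPL itself had −0.13, −0.06 and 0.12 with fenofibrate and a mean of −0.96 in loaded cells.

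Further regulators of triglyceride gave 9 of 11 positive means and a median of 0.26, which was −0.13 on replicate 3. CEBPB had 0.69, 0.46 and 0.28, and GCKR, the regulator of glucokinase, 0.54, 0.11 and 0.42. ANGPTL8 was positive on replicates 1 and 2 (0.56 and 0.88) and −0.31 on replicate 3. FOXO1, which drives hepatic glucose output, had 0.51, 0.24 and −1.21.

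Fatty acid and triglyceride synthesis had 20 of 24 genes positive, 9 of them at p under 0.05 and none negative at that level. The median was 0.27 (0.41, 0.32 and 0.08 by array; 0.38 without replicate 3). Beside FASN, SREBF1, the master factor of the pathway, had 0.68, 0.82 and 0.10. ACACA, which makes malonyl-CoA, had 0.65, 0.46 and 0.31, ACLY, the source of cytosolic acetyl-CoA, 0.69, 0.34 and 0.35, and DGAT2, which completes triglyceride, 0.37, 0.45 and 0.43. MLX, the partner of the carbohydrate-responsive factor, had 0.72, 0.57 and 1.78. The desaturase SCD had 0.63, 0.45 and 0.03. SREBF1 and SCD were near 0 on replicate 3, whereas FASN and DGAT2 kept their value there.

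Cholesterol synthesis had 19 of 22 genes positive, with a median of 0.25 (0.40, 0.27 and 0.30 by array), and 5 positive at p under 0.05. INSIG2, which retains the sterol sensor in the endoplasmic reticulum, had 0.49, 0.45 and 0.67, and the isomerase IDI1 0.46, 0.43 and 0.55. The 10 LXR targets had a median of 0.34, with ABCA1, the cholesterol exporter, at 0.84, 0.56 and 0.26.

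Receptors and partners of the drug's own pathway were mostly on the positive side. PPARA had 0.55, 0.23 and 0.02 (mean 0.27, adjusted p = 0.412). Its 4 probes had means of −0.31, 0.42, 0.36 and 0.60, and the first of them was −0.76 on replicate 3. RXRA, the partner, had 0.71, 0.52 and 0.36, and the corepressor NRIP1 0.57, 0.43 and 0.59. PPARD was negative on all 3 arrays, at −0.36, −0.85 and −0.22. Of the 15 genes, 12 had a positive mean, 2 were positive and 1 negative at p under 0.05, and the median was 0.30. The shares over all genes were 52.8%, 11.1% and 7.05%, so the counts at p under 0.05 were near those of any genes.

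Bile acid genes had a median of 0.26 over 18 members, 5 of them positive at p under 0.05, where 11.1% of all genes were. NR0B2, the receptor that represses bile acid synthesis, had 0.84, 0.73 and 0.54. CYP27A1, which starts the acidic pathway, had 0.63, 0.52 and 0.71, and FGFR4, the receptor for the ileal bile acid signal, 0.85, 0.40 and 0.68. CYP7A1, the rate-limiting enzyme of the classical pathway, had a mean of −0.23 and no common sign. CYP8B1 spread the most, with 0.54, −0.67 and 2.00.

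Secreted liver proteins divided by kind most clearly on replicate 3. The 21 measured secretory products of hepatocytes had a median of 0.50 (0.51, 0.34 and 0.61 by array), and 12 were positive at p under 0.05. AFP, the fetal plasma protein that hepatoma cells make, had 0.66, 0.48 and 1.26, TTR, the thyroid hormone carrier, 0.74, 0.63 and 0.75, and IGFBP1, a fasting-induced binding protein, 0.80, 0.40 and 1.42. ALB had 0.42, 0.34 and 0.84. The highest array was replicate 3 for these 4 genes. Acute phase genes had a median of 0.08 over 17 members, positive on replicates 1 and 2 (0.34 and 0.17) and −0.33 on replicate 3. Without replicate 3 the median was 0.395 for the secretory products and 0.232 for the acute phase genes, so the gap rests largely on that array. CRP was negative on all 3, at −0.43, −0.78 and −0.65, while the acute phase glycoprotein ORM2 had 0.44, 0.46 and 0.99. FGB, the fibrinogen beta chain, had 0.17, −0.11 and −1.94, and its sign rests on replicate 3: the mean was −0.63 with it and 0.03 without it. The hepatocyte marker list took its negative member from FGB.

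**Figure D4:**
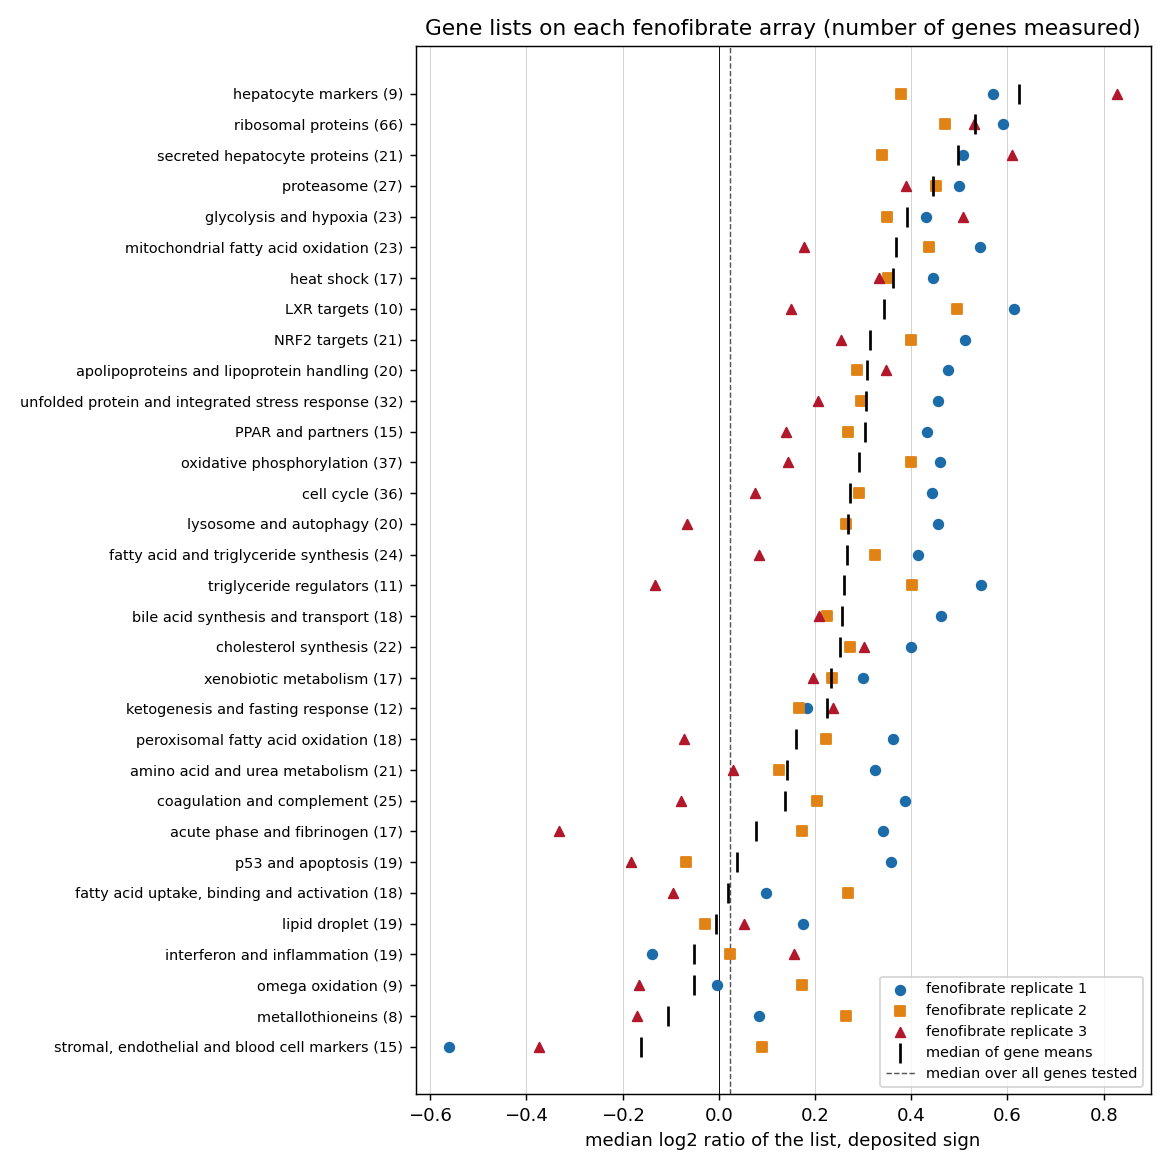
Median log2 ratio (deposited sign) of each of the 32 gene lists on each fenofibrate array, ordered by the median of the gene means, with the number of genes measured in brackets. The dashed line is the median over all genes tested, 0.02. Ribosomal and proteasome genes lie near 0.5 on all 3 arrays, mitochondrial fatty acid oxidation is lower on replicate 3 (0.18) than on the others, and the acute phase list is on the negative side on replicate 3 alone of the 3 arrays.

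Xenobiotic metabolism had 11 of 17 genes positive, 6 of them at p under 0.05, and 1 was negative at that level. The shares over all genes were 52.8%, 11.1% and 7.05%. POR, the reductase that feeds electrons to microsomal P450s, had 0.77, 0.33 and 1.15, and the epoxide hydrolase EPHX1 0.70, 0.52 and 0.41. CYP2C8 was negative on replicates 1 and 3 (−0.92 and −0.67) and 0.02 on replicate 2.

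Genes that every cell uses were positive in large part. Of 66 ribosomal protein genes, 60 had a positive mean, 44 were positive at p under 0.05 and 4 negative, and 20 were above 0.5 on all 3 arrays, where 0.834% of all genes were. The median was 0.53, with 0.59, 0.47 and 0.53 by array. RPL26 had 0.85, 0.61 and 1.17, and RPS27 1.00, 0.78 and 0.61. RPL10 (−2.21, −0.70 and −0.76) and RPL24 (−0.67, −1.21 and −1.25) had the other sign on all 3 arrays and on the mean of both other groups. Many processed pseudogenes resemble ribosomal protein genes, so the gene behind a probe is uncertain. All 27 proteasome genes had a positive mean, with a median of 0.45 and 19 positive at p under 0.05. For PSMB7 the values were 0.59, 0.50 and 0.79, and for PSMA3 0.53, 0.42 and 1.20.

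Oxidative phosphorylation had 32 of 37 genes positive and a median of 0.29, which was 0.14 on replicate 3. Glycolysis and hypoxia genes had a median of 0.39. LDHA, which makes lactate, had 0.58, 0.59 and 0.91, and HK1, the housekeeping hexokinase, −1.07, −0.23 and −0.55. Cell cycle genes had 32 of 36 positive and a median of 0.27. CCND1, the G1 cyclin, had 0.73, 0.41 and 0.87, and PCNA, the replication clamp, 0.53, 0.55 and 0.42.

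Chaperone and stress lists were on the positive side as well. The 32 genes of the unfolded protein and integrated stress responses had a median of 0.31, with 14 positive and 0 negative at p under 0.05. PHGDH and PSAT1, enzymes of serine synthesis and targets of ATF4, had 0.73, 0.56 and 1.22, and 0.71, 0.67 and 0.79. CHAC1, a glutathione-degrading target of the same pathway, had the lowest mean, −0.33. NRF2 targets had a median of 0.31, with TXN, thioredoxin, at 0.71, 0.55 and 0.89 and GCLC, which limits glutathione synthesis, at −0.34, −0.23 and −1.10. Heat shock genes had a median of 0.36. HSPD1, the mitochondrial chaperonin, had 0.65, 0.55 and 1.21, and DNAJB1, a cytosolic cochaperone, was negative on all 3 arrays at −0.84, −0.69 and −0.66. The positive medians of metabolic lists thus stand beside medians of 0.45 to 0.53 for proteasome and ribosomal genes measured on the same arrays. Spot brightness itself was not analysed here. A measure chosen after seeing the data was how large a denominator, searched up to 60, a fraction needed to equal the deposited ratio, taken as the median over arrays. Across probes, which are not independent, the ratios correlated with it at a Spearman rho of 0.226, 0.133 and 0.0104 on replicates 1, 2 and 3. On probes at or above the median of this measure, the medians were 0.61 for ribosomal and 0.45 for proteasome genes.

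Several of the largest ratios of replicates 1 and 2 were not shared by replicate 3. Of 46 genes with replicates 1 and 2 beyond 1 in size and of one sign (0.244% of genes), replicate 3 had the opposite sign for 17 (37%). Among all genes where replicates 1 and 2 shared a sign, replicate 3 had that sign for 54.2%, so reversal was no more frequent among the 46. Replicate 3 lay above the mean of the other arrays for 42 of the 46 and below it for 4. NEUROG2, a neuronal transcription factor, had −1.72 and −2.12 on replicates 1 and 2 and 0.79 on replicate 3. TMEM163, a vesicular zinc transporter, had −1.09, −1.77 and 0.89, and CCM2L −1.30, −1.31 and 0.63. C16orf78 and GNG2 likewise turned from below −1 to 0.25 and 0.59. KRTAP9-9, a hair keratin-associated protein, had −1.25, −4.07 and −0.71, so here replicate 2 was the array that stood apart. The 4 genes for which replicate 3 was the lower array were RCN2, GATA1, TRIM35 and MMD2, and for the last 3 it had the most negative ratio. These genes were chosen by their gap, so the gap itself is a description.

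In the direct comparison of fenofibrate with loaded cells without a compound, limma called 0 of 18819 genes (0%), with a smallest adjusted p of 0.472. At p under 0.05, 1934 genes differed (10.3%), 1006 with a positive (5.35%) and 928 with a negative difference (4.93%). Without replicate 3 it was 0 and 1318 (7%). Of the 9 genes called in the restricted test against the untreated control, none differed between fenofibrate and loaded cells at an adjusted p under 0.05 in that restricted test. CREB3L3 differed by 0.31 (SE 0.23, adjusted p = 0.554 over all genes) and FASN by 0.45 (SE 0.25, adjusted p = 0.48).

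The genes with the smallest p in this comparison were HAUS7, DNAJC17, LAIR1, PATE4, BRD3OS and GYS2, each at an adjusted p of 0.472. LAIR1 had 1.16, 0.63 and 0.75 with fenofibrate and −0.71, −0.56 and −0.35 in loaded cells, a difference of 1.39 (SE 0.24). PATE4 had 0.80, 0.79 and 0.91 against −0.26, −0.82 and −0.30. GYS2, the liver glycogen synthase, had −0.35, −0.12 and −0.13 against −1.97, −1.33 and −1.51, a difference of 1.40 (SE 0.26). HAUS7, a subunit of the augmin complex of the spindle, had 0.43, 0.15 and 0.66 against −1.23, −1.13 and −1.02. For each of these 4 genes the 3 fenofibrate arrays lay above the 3 loaded ones with no overlap.

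Among the lipid genes fixed by name, ANGPTL4, FGF21 and FASN were the ones whose fenofibrate arrays all lay above the loaded arrays. The loaded arrays had 0.74, 0.17 and 0.64 for FASN, −0.43, −0.19 and −0.11 for ANGPTL4 and −0.55, −0.17 and −0.30 for FGF21. For ANGPTL4 and FGF21 the differences were 0.68 (SE 0.24, adjusted p = 0.472) and 0.60 (SE 0.25, adjusted p = 0.472). CYP2D6 differed in the same way, with 0.81, 0.40 and 0.60 with fenofibrate and a mean of −0.32 in loaded cells. Cell cycle genes had 14 of 36 members with a negative difference at p under 0.05 and 0 with a positive one, where 4.93% of all genes had a negative one and 5.35% a positive one. The median of that list was 0.72 in loaded cells and 0.27 with fenofibrate, and replicate 3 had the lowest median of the fenofibrate arrays, 0.08. Without replicate 3 the fenofibrate median was 0.39. Other lists also had lower medians with fenofibrate than in loaded cells, such as oxidative phosphorylation (0.29 and 0.75), the proteasome (0.45 and 0.78) and coagulation and complement (0.14 and 0.45). The loaded arrays had wider ratios in general. The median absolute deviation over genes was 0.843, 0.613 and 0.588 on them and 0.541, 0.41 and 0.436 on the fenofibrate arrays. With all arrays scaled to the same spread, 922 genes differed at p under 0.05. Whether the spread of the arrays sets these lower medians, or the lower ratios of APOA1, APOA5 and APOC3 given above, was not tested. Of the p53 list, 5 of 19 had a negative difference from loaded cells at p under 0.05 and 0 a positive one at that level. BAX, the apoptosis effector, was the gene called among those with at least 2 probes (0.0186% of 5376, adjusted p = 0.0459) and is named after its values were seen. It had 0.27, −0.71 and 0.13 with fenofibrate and 1.32, 1.37 and 1.28 in loaded cells. It did not pass without replicate 2 or without replicate 3.

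Against linalool, with 2 arrays, limma called 0 of 18819 genes (0%), with a smallest adjusted p of 0.633, and 944 genes (5.02%) differed at p under 0.05, close to the 941 counted if nothing differed. Without replicate 3 there were 0 and 1118 (5.94%). CREB3L3 had the largest difference of the lipid genes fixed by name, 1.22 (SE 0.25, adjusted p = 0.813 over all genes and 0.149 among genes with at least 2 probes). FABP1 differed by 1.03, PLIN2 by 0.93, APOA5 by 0.89 and APOC3 by 0.83. For each of these 5 genes the fenofibrate arrays lay above both linalool arrays. RSPO2 was negative with fenofibrate and positive with linalool (0.60 and 0.42). GATA1 was negative with fenofibrate and had 0.02 and 0.69 with linalool. The 0.02 is the commonest value of linalool replicate 1, held by 496 probes, so it gives no clear sign. The GATA1 difference of −2.34 (SE 0.44, adjusted p = 0.777) was the largest of the 6 genes with the smallest p. The others of these 6 were SH3RF1, CBLL2, SCN8A and GUCY1B1. SH3RF1, a scaffold of stress kinase signalling, had 0.10, −0.45 and −0.60 with fenofibrate and 1.77 and 1.28 with linalool. SCN8A and GUCY1B1 had means of 0.05 and −0.05 with fenofibrate, and their linalool arrays lay between −1.28 and −1.67.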

How the data were processed

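Gene expression was measured on 8 two-colour arrays, of which the 3 fenofibrate arrays are described. The authors deposited log2 ratios of the 2 channels for 29187 probes, with 4 missing values. That they are log2 ratios was settled from the values: after taking off 1 constant per array, 100% were the log2 of a number with 3 decimals (tolerance 0.0001). Column medians were 0.0865, 0.0635 and −0.012 for fenofibrate replicates 1, 2 and 3. Scanner, background correction and normalization: not given in the sources used here. Depth of signal is unknown, and the number of arrays limits the precision. Direction stays unknown.

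The platform annotation gave 1 gene symbol for 25053 probes and none for 4134. All probes of a gene were averaged, giving 18821 genes, of which 18819 had enough values to be tested. One fit in limma 3.58.1 (R 4.3.3) to all 8 arrays had 1 coefficient per group, with two-sided moderated tests (lmFit and eBayes) and Benjamini-Hochberg adjustment over all genes at 0.05. The fit had 5 residual and 6.38 prior degrees of freedom. The script was tested on simulated data.

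The arrays, lists and tests were chosen with earlier results of these data known. Genes were named by rule: 14 of each sign with the smallest p and 1 sign on all arrays, 4 per list of 32 lists (669 of 752 entries had a value), a fixed set of lipid genes, calls without replicate 3, up to 6 each with the largest gaps of replicate 3, and 6 per group difference. Other members of the lists, and the genes called among those with at least 2 probes, were named after their values were seen. Alternatives were each array left out, array weights, other normalizations, other probe summaries and a replicate block.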

Additional observations from a re-analysis of the deposited data

Results flagged for a closer look

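Of 172 named genes, 17 had 1 sign on every fenofibrate array and the opposite sign on every array of another treated group. None of these differences passed the adjusted test. By the count at p under 0.05 given above, differences from linalool were no more frequent than expected if nothing differed. How many of all genes tested split by sign in this way was not counted. HAUS7, DNAJC17, LAIR1, PATE4 and BRD3OS are among the genes picked for the smallest p against loaded cells. RSPO2, GATA1 and CBLL2 are among those picked in the same way against linalool. For these genes the split follows in part from how they were picked and is a description. Against loaded cells the differences in mean log2 ratio were 1.52 for BRD3OS, 1.30 for PATE4, 1.39 for LAIR1, 0.68 for ANGPTL4, 0.60 for FGF21, 1.54 for HAUS7 and 1.30 for DNAJC17. Against linalool they were 1.17 for PATE4, −2.34 for GATA1, −1.58 for RSPO2, −1.10 for FABP6, 0.78 for FGFR4, −1.10 for DNAJB1, 0.90 for MCM5, 0.82 for CTSD, 0.52 for FGF21, 0.89 for APOA5, 0.83 for APOC3, 0.89 for HAUS7, 0.65 for DNAJC17 and −1.50 for CBLL2. For CTSD, FGF21, APOC3 and DNAJC17, the lowest fenofibrate array was 0.01, 0.01, 0.04 and 0.07. GATA1 and FABP6 had 0.02 on linalool replicate 1, the commonest value of that array, so their sign there is not clear.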

How the results depend on the processing

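With 1 array left out at a time, 0 to 1 genes were called against the untreated control, 0 to 0 against loaded cells and 0 to 3 against linalool. Array weights called 1 gene (RCN2), single probes 3, and genes with at least 2 probes 9. That last count became 3, 13 and 2 without fenofibrate replicates 1, 2 and 3, an alternative chosen after seeing the data. For fenofibrate minus loaded cells, genes with at least 2 probes gave 1 call, and 3 without fenofibrate replicate 1. For fenofibrate minus linalool, 2 were called among genes with at least 2 probes without fenofibrate replicate 2, 3 without linalool replicate 1 (ZNF892, DNAAF8 and CCR8) and 1 without linalool replicate 2 (NOSTRIN). The cause was not tested. The other alternatives gave 0 calls. The mean changed sign for 5 named genes: CYP4V2 (−0.50 to 0.17 with 1 array left out, 0.087 with array weights), CYP4F12 (−0.039 to 0.38), SCN8A (−0.040 to 0.11, −0.0071 with arrays centred on the median gene), GUCY1B1 (−0.25 to 0.078) and FGB (−1.03 to 0.029). Of 32 list medians, 14 moved by at least 1 SD of their array values under some alternative, and 3 changed sign without replicate 3: omega oxidation (−0.052 to 0.135), lipid droplet (−0.006 to 0.015) and metallothioneins (−0.106 to 0.017). Counts at p under 0.05 moved by over 1.5 times under some alternatives: against the control from 3410 to 2108 without fenofibrate replicate 1, against loaded cells from 1934 to 922 with arrays scaled to the same spread, 1138 without lipid-loaded replicate 1, 1176 with quantile normalization and 3018 without fenofibrate replicate 1, and against linalool from 944 to 1504 with quantile normalization, 1594 with array weights and 1724 with scaled spread. Spot brightness was not analysed here. On probes in the upper part of the denominator measure, chosen after seeing the data, 0 genes were called in the 3 comparisons. Against the control, 2257 of 10758 were then at p under 0.05, 71.6% of them positive (61.1% on all probes), and against loaded cells 1206, 37.9% positive. Same-numbered fenofibrate and loaded arrays deviated together at r of 0.14, −0.021 and 0.0826, and differently numbered ones at −0.141 to 0.0664. Whether the numbers mark a pairing was not tested. With the replicate number as a random replicate block, 0 genes were called in the 3 comparisons (smallest adjusted p 0.101 against the control, 0.424 against loaded cells and 0.53 against linalool). With a fixed replicate block, 0 were called against loaded cells (0.395) and linalool (0.865).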
